A study of Arabidopsis thaliana with 4 samples.

Results

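The change of the abscisic acid (ABA) response by ERD15 overexpression was read from 4 Affymetrix ATH1 arrays of Arabidopsis thaliana rosette leaves, all of the arrays in the series. For each probe set it is the log2 difference between the ABA-sprayed and the mock-sprayed overexpressor, minus the same difference in empty-vector plants. It is called the ABA-response difference below. A negative value means that the ABA-minus-mock step was lower in the overexpressor than in vector plants, and a positive value that it was higher. Values were taken after quantile normalisation, with signals under 13.3 raised to that floor. Probe sets with a mean normalised signal of 100 or more were used, which were 6476 of 22810. Of these, 3180 were paired with 1 gene, 148 with several and 3148 with no gene name in the annotation used here. At the edge of that limit, AT1G79970, with a mean signal just under 100, had an ABA-response difference of 0.93 and was left out, and AT1G15920, just over it, had -0.74 and was kept.

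All plants were 3 weeks old, in the Col-0 background, raised on kanamycin and then in peat and vermiculite with 12 h of light. The 4 groups hold 1 array each. Plants with the empty pCP60 vector were sprayed with water holding 0.07% ethanol (vector mock) or with 100 µM ABA in the same concentration of ethanol (vector ABA), and plants of the ERD15 oex 52 line received the same sprays (overexpressor mock and overexpressor ABA). Rosettes were collected after 90 min. Leaves of 3 plants were pooled for every sample except vector mock, whose labels do not state pooling. The overexpressor is 1 line, and the promoter driving ERD15 is not given in the sources used here. A further label of the overexpressor samples names a knock-out of AT2G41430, the ERD15 locus, which goes against their titles and source names. No probe set used here was paired with ERD15, so its level could not be used to check the labels. With 1 array per group there is no replicate error: every value below compares these arrays, with no test.

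ABA accumulates in leaves during drought. It binds PYR/PYL receptors, which inhibit clade A type 2C protein phosphatases and so release SnRK2 kinases and ABF transcription factors that switch on dehydration genes. ERD15 is a small acidic protein whose transcript appears early in dehydration, and it has been studied as a modulator of ABA sensitivity and of resistance to bacterial pathogens. The interaction of genotype and treatment asks whether a gene answers ABA differently when ERD15 is overexpressed.

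The genotypes differed far more after the mock spray than after ABA. Between both mock arrays 535 of 6476 probe sets (8.26%) differed by 2-fold or more, with 351 (5.42%) higher and 184 (2.84%) lower in the overexpressor. Between both ABA arrays 128 (1.98%) did, with 52 (0.803%) higher and 76 (1.17%) lower. Across probe sets, the log2 signals correlated most closely between vector ABA and overexpressor ABA (Pearson r = 0.950). The other pairs had 0.907 for the overexpressor arrays, 0.898 for vector ABA with overexpressor mock, 0.884 for the vector arrays, 0.871 for the mock arrays and 0.836 for vector mock with overexpressor ABA. Every pair holding vector mock was thus below every other pair. The control spike-ins described below also differed more between the mock arrays, with a median genotype difference of -1.03, against 0.39 between the ABA arrays. The part of that shift in the contrast between the sprays was not tested.

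The ABA-response difference was at least 2-fold for 562 of 6476 probe sets (8.68%): 364 were negative (5.62%) and 198 positive (3.06%). Its median was 0.02 and its quartiles -0.36 and 0.36, and it ran from -5.13 to 2.75. The negative side was the longer one, with 60 probe sets past 4-fold against 4 on the positive side. These signs are relative to the bulk of probe sets, which the normalisation sets near 0: with the control spike-ins described below made equal on all arrays, a scaling chosen after seeing the data, the median of all probe sets was -1.28, with 1 positive and 4595 negative past 2-fold. Among the 364 negative probe sets 159 had 1 gene name, and among the 198 positive ones 106. The 2 most negative probe sets had no gene name. The first had signals of 77.9 after mock and 706 after ABA in vector plants, against 5248 and 1357 in the overexpressor, and the other had 71.7 and 1139 against 4335 and 2125.

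A negative value can come from a low vector mock, a high vector ABA, a high overexpressor mock or a low overexpressor ABA array. For 232 of the 364 negative probe sets the array farthest from the median of the 4 was vector mock, and it was low. For 77 it was overexpressor mock (high), for 40 overexpressor ABA (low) and for 15 vector ABA (high). In 101 of the 364, vector mock lay at least 2-fold below the nearest other array while the other 3 arrays lay within 2-fold of each other. The median genotype difference of the 364 was 1.26 under mock and -0.11 under ABA. The choice of negative probe sets fixes that order, since the ABA-response difference equals the genotype difference under ABA minus that under mock. The positive side was more evenly spread: overexpressor mock was the farthest array for 68 of 198 (low), vector mock for 51 (high), vector ABA for 47 (low) and overexpressor ABA for 32 (high). A single array set the pattern in 18 of those 198. Since each group is 1 array, no result could be repeated without vector mock or without overexpressor mock.

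**Figure D1:**
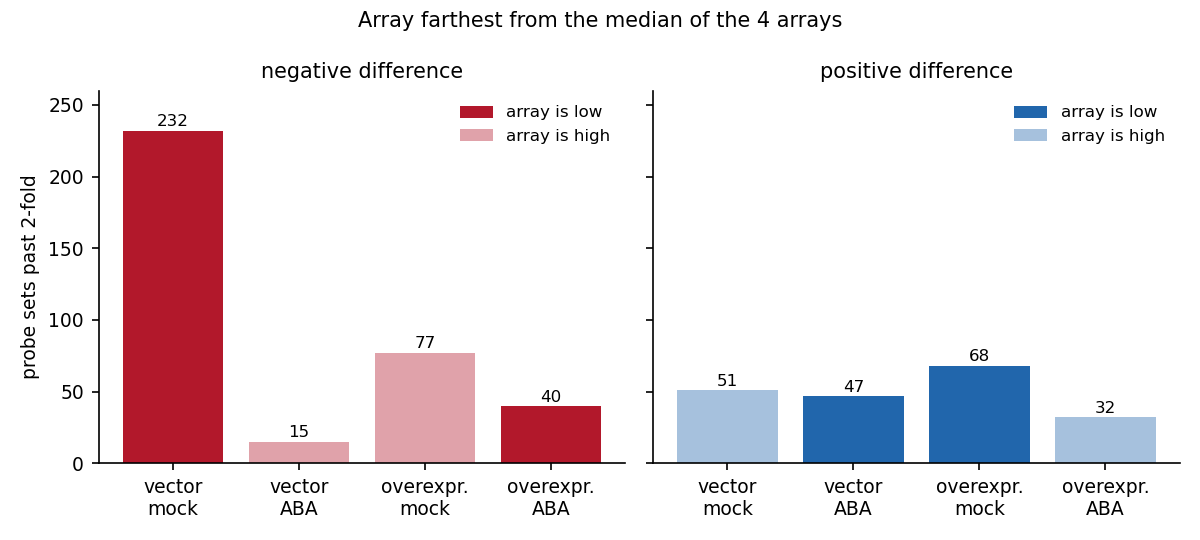
Number of probe sets with an ABA-response difference of 2-fold or more (y axis) by the array farthest from the median of the 4 arrays (x axis), for negative differences on the left and positive ones on the right. Dark bars are arrays that lay low and pale bars arrays that lay high. Vector mock, lying low, is the farthest array for 232 of 364 negative probe sets.

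The ABA steps of both genotypes, which share no array, correlated across probe sets with a Pearson r of 0.424 and a Spearman rho of 0.187. ABA and mock differed by 2-fold or more for 533 probe sets (8.23%) in vector plants, 348 (5.37%) higher with ABA and 185 (2.86%) lower. For the overexpressor the number was 365 (5.64%), of which 176 (2.72%) were higher with ABA and 189 (2.92%) lower. Among probe sets lower with ABA, 92 were so in both genotypes, which is 49.7% of the vector list and 48.7% of the overexpressor list. Among those higher with ABA, 96 were so in both, which is 54.5% of the overexpressor list and 27.6% of the vector list. The 348 probe sets chosen as higher in vector plants had a median step of 1.41 there and 0.43 in the overexpressor, whereas the 176 chosen in the overexpressor had 1.38 there and 1.12 in vector plants. Lists chosen in 1 genotype read lower in the other by selection alone, so the comparison is between these pairs of medians. Among probe sets 2-fold higher with ABA in vector plants and within 2-fold in the overexpressor, which were 236, vector mock was the lowest array for 226; the choice of these probe sets largely fixes that count. Their median genotype difference was 1.28 under mock and 0.06 under ABA, an order that the choice also fixes.

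**Figure D2:**
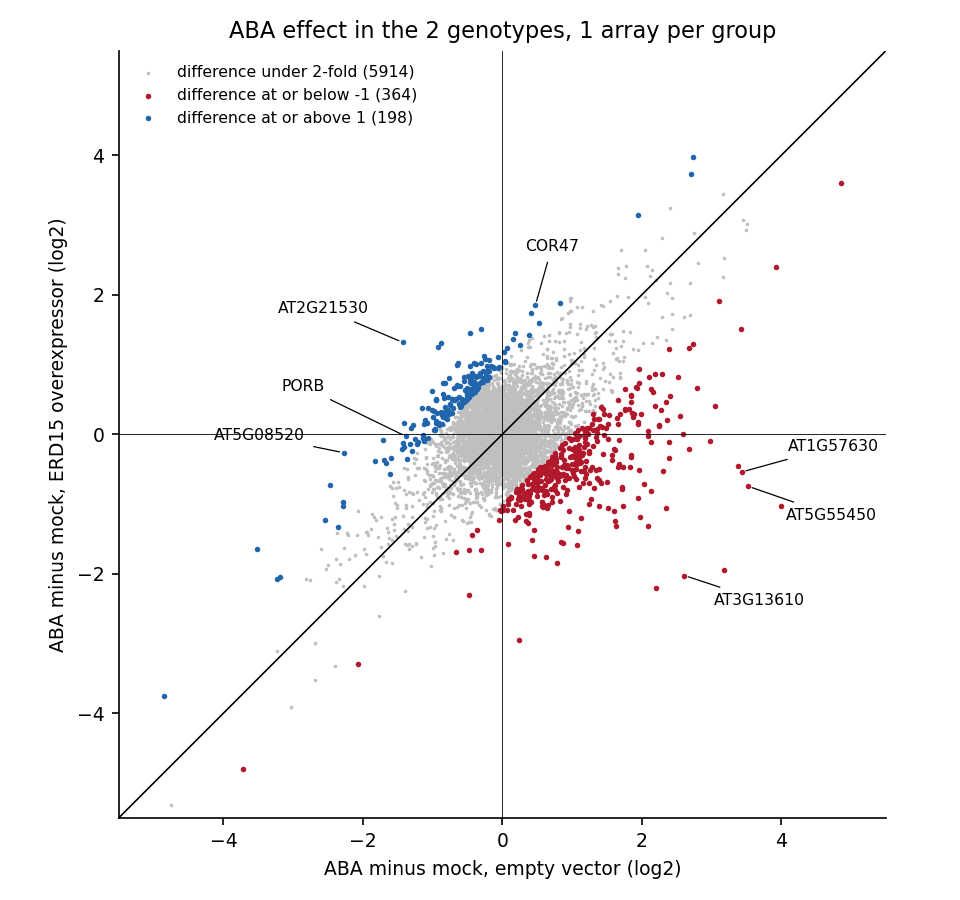
ABA-minus-mock log2 difference in empty-vector plants (x axis) against that in the ERD15 overexpressor (y axis), 1 point per probe set with a mean signal of 100 or more; the diagonal marks equal steps. Red points (364) have a negative and blue points (198) a positive ABA-response difference of 2-fold or more, and the red points reach farther from the diagonal.

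Most genes with the lowest values had a higher signal with ABA in vector plants and were already high in the mock-sprayed overexpressor. Signals of each gene are given for vector plants first, mock before ABA, and then for the overexpressor. The lipid transfer-like gene AT5G55450 had normalised signals of 22.9 after mock and 263 after ABA in vector plants, against 612 and 365 in the overexpressor. Its ABA step was thus 3.52 for vector plants and -0.75 for the overexpressor, a difference of -4.27. AT1G57630, which encodes a protein with a TIR domain as found in plant immune receptors, had signals of 30.6, 331, 479 and 329.5. Only vector mock was low for this gene, and its difference was -3.98. CHI, a putative chitinase gene, had 172, 674, 3129 and 1369.6, and here the overexpressor lay above vector plants under both sprays. Its ABA step was 1.97 for vector plants and -1.19 for the overexpressor.

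AT1G21520 had signals of 30.0 after mock and 235 after ABA in vector plants, against 455 and 424 in the overexpressor. AT3G47480, which encodes an EF-hand calcium-binding protein, had 59.4, 242, 523 and 319. AT5G52760, which encodes a protein with a heavy-metal-associated domain, had 42.4 on vector mock and 257, 241 and 241 on the others. These genes share a low vector mock array, and their ABA-response differences were -3.07, -2.74 and -2.60. AT3G28540, an AAA-type ATPase gene, had signals of 47.4, 156, 437 and 254, with a difference of -2.50, and AT2G39710, an aspartyl protease gene, had 42.1, 149.96, 140.3 and 102, with -2.30. For AT1G76960 the signals were 111, 289, 652 and 319.6, so that its overexpressor mock array stood highest and its difference was -2.42.

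In other genes the overexpressor mock array was the one that stood apart. AT5G46230, which encodes a protein with a domain of unknown function, had signals of 138 after mock and 212 after ABA in vector plants, against 536 and 159 in the overexpressor. Its difference was -2.38, made of a step of 0.62 in vector plants and -1.76 in the overexpressor. AT2G41250, which encodes a haloacid dehalogenase-like hydrolase, had 205.5, 276.5, 722 and 253, and a difference of -1.94. AT2G44240 was at the floor on vector mock and had 15.6 after ABA in vector plants, with 715 and 92.6 in the overexpressor. This gene was near the floor on both vector arrays and higher in the overexpressor under both sprays, by 2.57 under ABA. Overexpressor mock was thus farthest but not alone in standing apart. The step of AT2G44240 in the overexpressor was -2.95.

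Of the genes with a name, 20 had a negative difference of 4-fold or more and 3 a positive one. Vector mock was the lowest array for all 20 and overexpressor mock the highest for 16; genes chosen for a negative value tend to both by construction. The 2 not yet described that reached the floor were AT3G13610, which encodes the feruloyl-CoA hydroxylase F6'H1 of scopoletin synthesis, and AT5G17760, an AAA-type ATPase gene. F6'H1 had a signal of 81.0 after ABA in vector plants, with 378 and 92.9 in the overexpressor. AT5G17760 had 138, 442 and 322. With vector mock at the floor, their differences of -4.64 and -3.84 are upper limits of the true values. Another 4 genes in this group, named after their values were seen, were AT1G43910 (-2.19), AT4G00700 (-2.12), AT4G27280 (-2.11) and AT3G60420 (-2.11). In AT4G00700 and AT3G60420 the step in the overexpressor was close to 0, at 0.13 and -0.03, against 2.25 and 2.09 in vector plants.

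**Figure D3:**
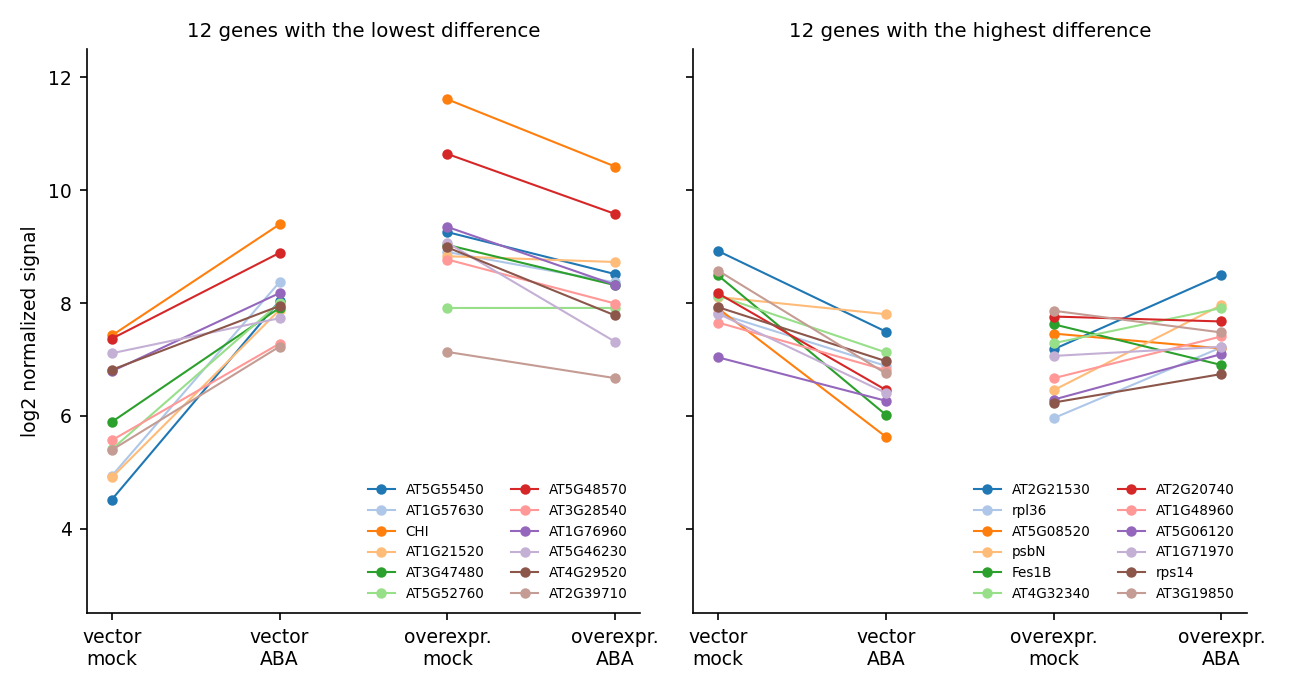
Log2 normalised signal (y axis) on the 4 arrays (x axis) of the 12 named genes with the lowest (left) and the highest (right) ABA-response difference among genes above the floor on every array; a line joins mock and ABA of 1 genotype. On the left the lines slope up in vector plants, from levels of 22.9 to 172 on the linear scale on vector mock, and are level or slope down in the overexpressor.

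Chaperone genes were found among the most negative values. Chaperones help proteins fold, and those of the cytosol are induced by heat through heat shock factors, while those of the endoplasmic reticulum (ER) are induced when unfolded secretory proteins build up there. A list of 35 heat stress chaperone and related genes was drawn up after several of them had been seen at the extreme. That choice partly fixes the counts and medians given here. The list does not hold Fes1B, an HSP70 exchange factor at 1.75. Of its 8 measured members 7 had a negative difference of 2-fold or more and none a positive one, against 159 negative (5.03%) and 105 positive (3.32%) of all 3162 genes with a name (8.35% in either direction). The median of the list was -1.72, against 0.04 over all these genes. With ABA the members' median step was 1.10 for vector plants and -0.53 for the overexpressor, and their median genotype difference was 1.48 under mock and 0.02 under ABA.

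ROF2 (AT5G48570), a peptidyl-prolyl isomerase that acts with HSP90 in the heat response, had signals of 165 after mock and 474 after ABA in vector plants, against 1599 and 765 in the overexpressor. Its difference was -2.59. Hsp70-2, of the HSP70 family, had 298.5, 940.5, 1106.5 and 799, with only vector mock low and a difference of -2.12. HSC70-3 (AT3G09440), another HSP70, had 1119, 2534, 2528 and 1644, with vector ABA and overexpressor mock nearly level, and a difference of -1.80. Hop3, which links HSP70 to HSP90, had 60.6, 108, 161 and 82.7 (difference -1.79), whereas its relative Hop2 had 259, 297, 404 and 305, under 2-fold at -0.60. The small heat shock protein gene AT2G29500 had 37.4, 81.6, 176 and 122, the J-domain gene AT2G20560 had 57.4, 99.1, 167 and 115, and AT5G25450 had 67.0, 140.5, 173 and 140.3. The differences of these last genes were -1.66, -1.33 and -1.37.

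Genes of protein folding in the ER were also mostly negative. From a list of 22, also drawn up after values were seen, 7 were measured, the bZIP transcription factors named below included. Of the 7, 4 were negative by 2-fold or more and none positive by that much. Among all genes with a name 5.03% were negative and 3.32% positive by that much. The median of the list was -1.19. AT4G29520, known as SES1, an ER protein with chaperone activity, had signals of 113 after mock and 247 after ABA in vector plants, against 507 and 219.7 in the overexpressor (difference -2.34). The calnexin gene AT5G07340 had 104, 143, 298 and 115 (-1.83), so that only overexpressor mock stood high. The co-chaperone gene ERDJ3B had 484, 811, 1561 and 926 (-1.50), and the calreticulin gene CRT1b had 764, 1074.5, 1945 and 1202 (-1.19). The membrane-tethered transcription factors that switch on such genes were closer to 0 or positive: BZIP28 had -0.76, BZIP60 -0.32 and BZIP17 0.87. On the other side, Fes1B, an exchange factor for HSP70, had one of the most positive values of all. Its signals were 359 after mock and 64.8 after ABA in vector plants, against 197 and 119 in the overexpressor, so that its ABA step was -2.47 for vector plants and -0.72 for the overexpressor.

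Among families found by gene symbol or synonym, the pectin-modifying genes stood at the negative end. All 3 measured ones encode pectin methylesterases, which de-esterify wall pectin, and all were negative by 2-fold or more, where 5.03% of all genes with a name were negative and 3.32% positive by that much. PME61 had signals of 67.0 after mock and 139 after ABA in vector plants, against 121 and 77.4 in the overexpressor, with a difference of -1.70. Its mean signal of 101 was close to the limit. ATPMEPCRB had 82.7, 552, 188 and 461 and was higher with ABA in both genotypes, by 2.74 and 1.29. PMEPCRF had 380.0, 583, 1110.5 and 623. The last 2 had differences of -1.45 each. Of 5 UDP-glycosyltransferase genes, which attach sugars to small molecules, UGT87A2 (-1.27) and UGT74B1 of glucosinolate synthesis (-1.16) were past 2-fold, and the median was -0.36. All 4 measured cytochrome P450 genes were negative, with 1 past 2-fold, CYP71B23 (-1.29), and a median of -0.80. All 4 belong to the CYP71B subfamily, so they do not stand for the P450 family as a whole. Of 4 beta-glucosidase genes, BGLU25 was at -1.52, and the other 3 lay between 0.74 and 0.96. No measured member reached 2-fold among 4 glutathione S-transferase genes (median 0.34) and 3 WRKY genes (-0.51). The same held for 7 nuclear photosystem and related genes (0.28, or 0.68 without quantile normalisation and 0.76 with median centring). The 2 late embryogenesis abundant genes found by name had 0.02 and 0.17. That match left out the dehydrin genes COR47 (1.38) and LTI30 (-0.18), which are described below with the ABA genes.

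The most positive value belonged to AT2G21530, which encodes a protein with a phosphopeptide-binding FHA domain. It had signals of 485 after mock and 180.1 after ABA in vector plants, against 145 and 362 in the overexpressor. Its ABA step was thus -1.43 for vector plants and 1.32 for the overexpressor, a difference of 2.75. AT5G08520, a MYB-related transcription factor gene, had 239.7, 49.5, 176 and 146, low on vector ABA only (difference 2.01). The tetraspanin gene AT2G20740 had 288, 87.9, 217 and 204, again low on vector ABA only (1.63). AT3G19850, which encodes a protein of the NPH3 family of phototropic signalling, had 381, 108, 233 and 178 (1.44). AT1G71970 had 225, 84.8, 134 and 149 (1.57). Vector ABA was the lowest array for the last 4 of these genes, and overexpressor mock for AT2G21530.

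In a second kind of positive gene, signals were lower on both vector ABA and overexpressor mock. AT4G32340, which encodes a tetratricopeptide-repeat protein, had signals of 280.1 after mock and 139 after ABA in vector plants, against 156 and 241 in the overexpressor. AT1G48960 had 201, 112, 102 and 169.8, and AT5G06120, which encodes a protein with armadillo repeats, had 131, 77.0, 78.1 and 137. Their differences were 1.63, 1.59 and 1.58. AT5G12150, which encodes a RhoGAP, an inactivator of small ROP GTPases, had 558, 421, 251 and 508.5 and was low on overexpressor mock (1.43).

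Genes encoded by the plastid genome leaned to the positive side. The 67 such genes above the signal limit had a median difference of 0.39, against 0.04 for all genes with a name, and 53 were above 0. This median was 0.61 without quantile normalisation and 0.70 with median centring. Of the 67, 6 were positive by 2-fold or more and none negative, against 3.32% positive and 5.03% negative of all genes with a name: rpl36 (2.19), psbN (1.81), rps14 (1.46), rbcL (1.27), rpl14 (1.19) and psbJ (1.01). Signals of rpl36, a ribosomal protein gene, were 225 after mock and 118 after ABA in vector plants, against 62.2 and 149 in the overexpressor. Those of psbN, which is needed to assemble photosystem II, were 276, 223, 87.7 and 249.6, and those of rps14 were 243, 125, 75.3 and 107. The overexpressor mock array was the lowest for rpl36, psbN and rps14, and also for rbcL and rpl14, whereas psbJ was lowest on vector ABA.

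Few genes of the ABA pathway itself could be read. Of 29 ABA and dehydration response genes, 4 were measured, with a median difference of 0.59, against 0.04 for all genes with a name. Of the 4, 1 was positive by 2-fold or more and none negative, where 3.32% of all genes with a name were positive and 5.03% negative. COR47, a dehydrin that protects cells in cold and drought, had signals of 1312 after mock and 1822 after ABA in vector plants, against 579 and 2089.9 in the overexpressor. Its difference of 1.38 came with a low overexpressor mock array, while the ABA arrays were close. COR15A, a chloroplast protein that stabilises membranes, had 314.5, 990.2, 210.2 and 1096.5, with ABA steps of 1.65 and 2.38. COR15B had 89.5, 112, 86.2 and 148 (difference 0.46). LTI30, another dehydrin gene, had 76.8, 221, 83.1 and 211, with ABA steps of 1.53 and 1.34.

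Wall-loosening genes differed in their ABA steps. The xyloglucan endotransglucosylase gene XTH18 had signals of 153 after mock and 813 after ABA in vector plants, against 83.9 and 796 in the overexpressor, with steps of 2.41 and 3.25. The expansin gene EXPA16 had 26.2, 236, 33.5 and 193, with steps of 3.17 and 2.53. XTH33 was lower with ABA in both genotypes, with steps of -1.77 and -2.60, while XTH32 had 0.29 and 0.78 and XTH16 had 0.08 and 0.47. The median difference of the 4 measured XTH genes was 0.44, and none reached 2-fold. WRKY53, a transcription factor of leaf senescence and defence and the 1 measured of 25 rapid stress genes, had 57.9, 168, 122 and 223. Its steps were 1.54 and 0.86, and the overexpressor lay above vector plants under both sprays.

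Of 11 clock genes 1 was measured. GI, which peaks late in the day, had signals of 137 after mock and 69.2 after ABA in vector plants, against 146 and 184 in the overexpressor, so that its difference of 1.33 came from the ABA arrays. PORB, which makes chlorophyllide in the light, had 2444, 939, 2403.5 and 2352. It was low on vector ABA only, and its difference was 1.35. Of 27 listed photosynthesis genes 5 were measured; those besides PORB, namely RCA and 3 light-harvesting genes, lay between -0.04 and 0.64, and the median of all 5 was 0.45. Without quantile normalisation this median was 0.91. Bright probe sets moved with that step: the 123 with a mean signal of 3000 or more had a median difference of 0.08 with it and 0.61 without.

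**Figure D4:**
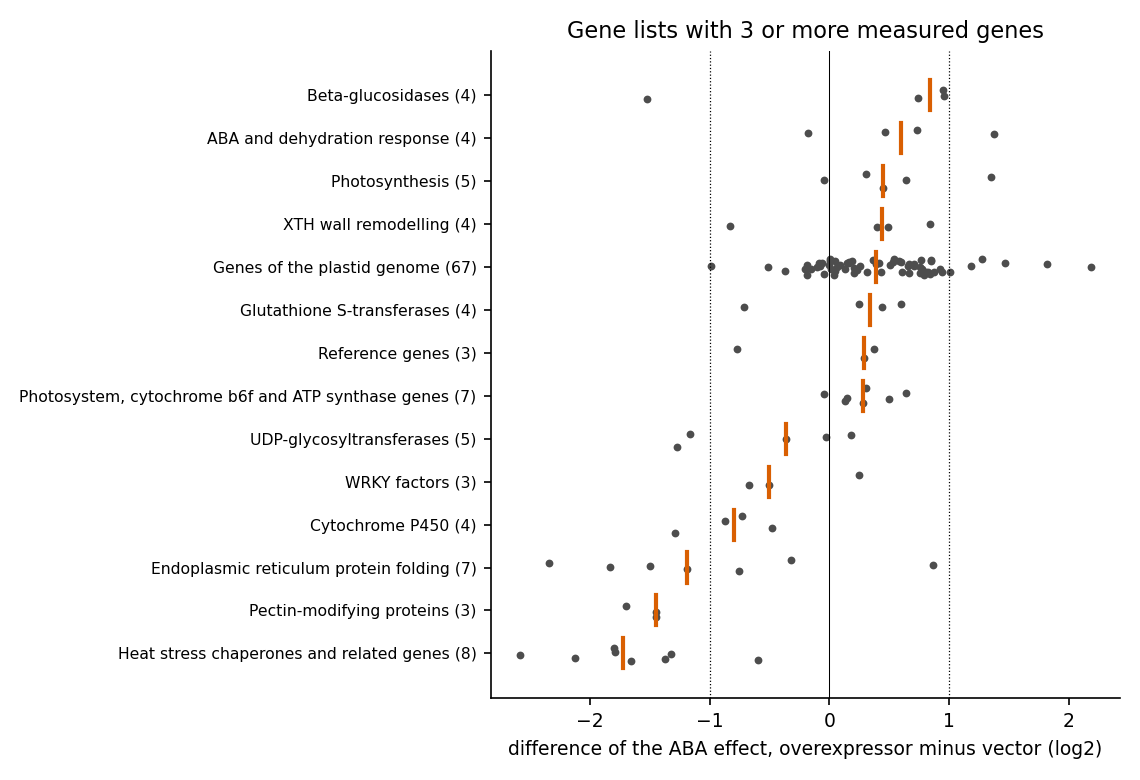
ABA-response difference (x axis, log2) of each measured gene (points) in the lists with 3 or more measured genes (rows, number measured in brackets), with the list's median as an orange bar and 2-fold marked by dotted lines. The heat stress chaperone and pectin-modifying lists lie at the negative end, with medians of -1.72 and -1.45.

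Of the genes whose ABA step passed 2-fold in only 1 genotype, the 3 nearest to equal steps are given for each of 4 classes. AT5G02940 had ABA steps of 1.15 for vector plants and 0.93 for the overexpressor, the peroxidase gene AT5G64120 had 1.08 and 0.75, and AT3G19030 had 1.34 and 0.99. In the opposite case, the glycine-rich protein gene AT4G29020 had 0.98 and 1.07, AT3G48460 had 0.89 and 1.13 and AT2G35880 had 0.72 and 1.02. Among lowered genes, AT5G20050 had -1.04 and -0.97, the receptor kinase gene AT1G51805 had -1.19 and -0.94, and AT1G04040 had -1.13 and -0.86. AT2G19650 had -0.98 and -1.10, AT5G19120 had -0.88 and -1.06, and AT3G02690 had -0.89 and -1.09. For these 12 genes the ABA-response difference was between -0.35 and 0.31. They were chosen for small differences, and they show that the class by itself does not give the size of the difference.

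Few probe sets had opposite steps. ABA went with a 2-fold higher signal in vector plants and a 2-fold lower one in the overexpressor for 16 probe sets, and the reverse for 1, AT2G21530. Of the 16, those paired with 1 gene were F6'H1, CHI, ROF2, AT1G76960 and SES1. Vector mock was the lowest array for all 16. Neither vector ABA nor overexpressor mock can be the lowest in such a probe set, so the choice partly fixes that count. Their median genotype difference was 3.56 under mock and 0.51 under ABA, an order that the choice fixes.

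Control probe sets also showed an ABA-response difference. The hybridization spike-ins are labelled bacterial and phage transcripts (bioB, bioC, bioD and cre), which are normally added in the same amount to every sample; the labels do not state the amount. After the same normalisation all 17 spike-in probe sets above the floor had a positive difference, from 0.64 to 1.79, with a median of 1.44; 12 were past 2-fold. Their median ABA step was -0.51 for vector plants and 0.84 for the overexpressor. Their median genotype difference was -1.03 under mock and 0.39 under ABA. The 25S ribosomal RNA control had a difference of 1.56 and the 5S control -0.49. The 5 GAPDH controls lay between -1.31 and -0.67, and the 11 actin and ubiquitin controls between -0.55 and 0.39. The reference genes PEX4, GAPC2 and AT2G28390 had 0.37, -0.77 and 0.29. The positive values of the plastid genes, of COR47 and of other genes low on overexpressor mock have the same sign as the spike-ins, and the negative values of the heat stress chaperone list have the opposite sign. The part of the spike-in shift in these results was not tested.

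**Figure D5:**
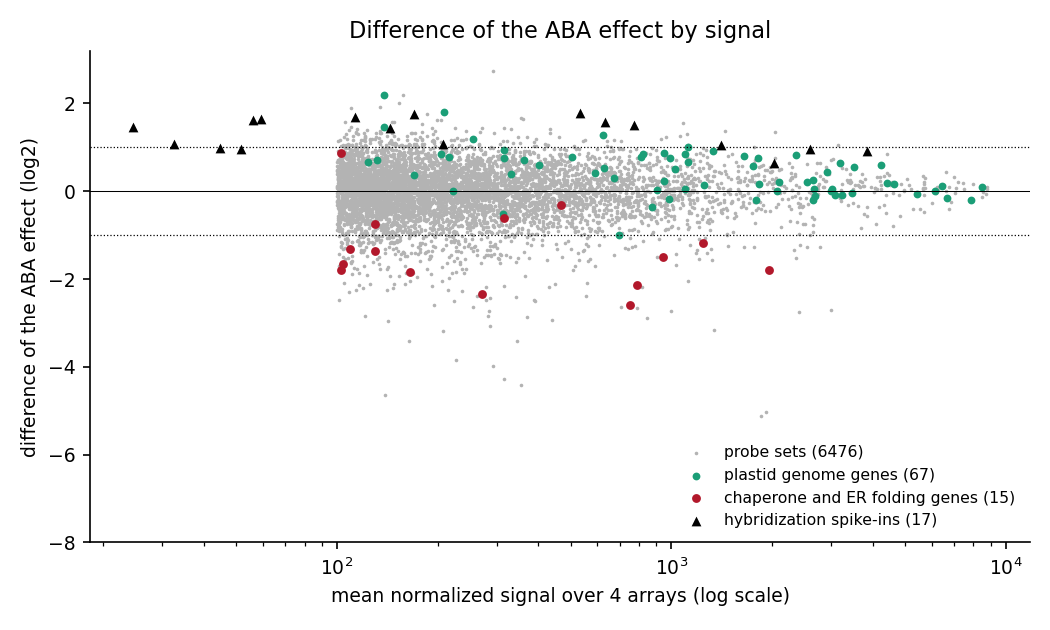
ABA-response difference (y axis, log2) against the mean normalised signal over the 4 arrays (x axis, log scale) for all 6476 probe sets, with plastid genome genes in green, members of the heat stress chaperone and ER folding lists (3 bZIP factors included) in red and hybridization spike-ins as black triangles. All 17 spike-ins lie above 0, and 14 of the 15 members of these lists, which were drawn up after values were seen and do not hold Fes1B (1.75), lie below it.

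Photosynthesis genes were bright, as in green leaves, with RCA between 5696 and 7231 on the 4 arrays. No gene of the root, vasculature, flower and seed or guard cell marker lists had a named probe set above the signal limit, so these markers could not be read here. None of the PYR/PYL receptors, clade A phosphatases, SnRK2 kinases, ABF factors or ABA synthesis and catabolism genes had such a probe set, and neither did any listed jasmonate, salicylic acid or auxin gene or any of the 9 genes of a first, shorter heat shock list. In RNA of whole leaves, fewer cells of a type and less RNA per cell cannot be told apart.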

How the data were processed

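Biotin-labelled material made from total RNA was hybridised to 4 ATH1 arrays. The deposited signal intensities are linear and were made by the authors with MAS5, which the submitters' processing notes name without a version. MAS5 summarises each probe set and scales each array. The 22746 non-control values of an array were multiplied to give a mean of 100 after trimming 2% at each end (before this, 99.1 to 99.3), quantile normalised, floored at the pooled 25th percentile (13.3) and converted to log2 (Python 3.11.15, pandas 2.3.3). Detection calls were not used, and 7 of the 6476 probe sets were at the floor on an array. The number of arrays limits the precision: 1 per group, so no test was run and calls are counts at 2-fold.

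Names came from the platform annotation and the TAIR10.1 RefSeq table (3173 of 3180 matched). Genes with several probe sets (18 of 3162) were read from the brightest. No sequences are shown. The 12 highest and 12 lowest genes above the floor that stayed past 2-fold without quantile normalisation were named, with 3 genes at each end of 4 response classes and list members past 2-fold. Of 211 loci in the first lists 14 were measured. Family names matched few genes, and 10 families none: ERF/AP2, NAC and MYB factors, ribosomal, lipid transfer and heat shock proteins, peroxidases, receptor-like kinases, resistance proteins and histones. Members, lists and rules were chosen with earlier results of these data known. The steps were tested on simulated data. Alternatives changed the normalisation (cyclic loess by limma 3.58.1 in R 4.3.3), the floor and the signal limit.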

Additional observations from a re-analysis of the deposited data

Results flagged for a closer look

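Opposite ABA steps in the 2 genotypes, each of 2-fold or more, were seen in 6 genes with a name, and the difference was not tested, since each group is 1 array. Those higher with ABA in vector plants and lower in the overexpressor were AT3G13610 (F6'H1, ABA-response difference -4.64, an upper limit), CHI (-3.16), AT5G48570 (ROF2, -2.59), AT1G76960 (-2.42) and AT4G29520 (SES1, -2.34). The reverse was seen in AT2G21530 (2.75). The first 5 were lowest on vector mock and highest on overexpressor mock, and AT2G21530 was highest on vector mock and lowest on overexpressor mock. Choosing genes with opposite steps partly fixes this order.

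The hybridization spike-ins, which lie outside the gene measurements, had a median ABA-response difference of 1.44 over 17 probe sets, relative to the bulk of probe sets, which the normalisation sets near 0. Its part in the gene results was not tested.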

How the results depend on the processing

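The settings compared were no quantile normalisation, median centring, cyclic loess and floors at the pooled 10th and 40th percentiles. All 53 named genes kept their direction where past 2-fold, and their side of 2-fold, under these settings. The genes named as highest or lowest were chosen to stay past 2-fold without quantile normalisation, which fixed their result there. It largely fixed it under median centring too, which also leaves out quantile normalisation. They were also chosen above the floor on every array, so the lower floor could not change them. Under those 5 settings the negative count ran from 346 to 426 and the positive count from 173 to 237, and the probe sets of opposite direction were 10 with median centring. The members changed more on the positive side. Without quantile normalisation 357 of the 364 negative probe sets (98.1%) kept their direction and 2-fold, against 159 of the 198 positive ones (80.3%). The limit on signal moved the counts with the number of probe sets. At a mean of 50 or more there were 475 positive and 737 negative probe sets, 448 raised and 197 lowered in vector only, 137 raised and 224 lowered in the overexpressor only, 151 raised in both and 28 opposite. At 200 or more these were 70, 192, 147, 37, 45, 45 and 52, with 58 lowered in both. With no limit they were 1678, 1883, 1013, 757, 622, 802 and 218, with 152 opposite and 208 lowered in both. The list medians moved by over 0.53 in 2 cases: photosynthesis to 0.99 with median centring, and UDP-glycosyltransferases to -1.16 at 200 or more. A scaling chosen after seeing the data, which made the mean spike-in signal equal on all arrays, shifted the median of all probe sets to -1.28 and left 1 positive and 4595 negative. No paired analysis was possible because each group holds 1 array, and none could be left out.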
